A study of Mus musculus with 4 samples.

Results

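The genes described here are 3 opioid peptide precursor genes and the 4 opioid receptor genes of the mouse, and all 7 were represented on the arrays. Pomc, the precursor of beta-endorphin, is not among them and is given with the other neuropeptides. Penk, Pdyn and Pnoc encode the precursors of the enkephalins, the dynorphins and nociceptin. Oprm1, Oprd1, Oprk1 and Oprl1 encode the mu, delta, kappa and nociceptin receptors. The members were all probesets whose only platform gene symbol was one of these 7, which gave 13 of the 45037 probesets that are not array controls. No member probeset was annotated to several genes.

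The arrays measured messenger RNA of the hippocampus in male DBA/2J mice, an inbred strain, aged 8 to 10 weeks by the labels. Fluoxetine mice drank water with fluoxetine, a blocker of serotonin reuptake, at 18 mg/kg per day for 21 days. Control mice drank untreated water (dose 0). Each group held 12 mice, and RNA from the bilateral hippocampi of 6 mice at a time was combined, so that 2 fluoxetine pools and 2 control pools were each hybridised to 1 Affymetrix Mouse Genome 430 2.0 array. A pool averages its mice, so differences between single mice were not measured. The design text also describes a tail suspension test, and does not say whether the pooled mice had taken it.

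Opioid precursors are cut inside dense-core vesicles into short peptides that act on receptors coupled to inhibitory G proteins. These receptors lower cyclic AMP, open inwardly rectifying potassium channels and close presynaptic calcium channels. In the rodent hippocampus, enkephalins and dynorphins are known from the dentate granule cells and their mossy fibres, enkephalins also from interneurons and from the perforant path, and mu and delta receptors from interneurons, where opioids reduce inhibition.

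Values are GCRMA intensities on a linear scale, and the submitters took 100 as the lowest intensity that counts as expression above background. The median intensity over all probesets lay between 22.6 and 23.3 in the 4 arrays, and 16612 to 16866 probesets per array reached 100. The number of arrays limits the precision. Markers of dentate granule cells (11 of 12 annotated genes) and of CA pyramidal neurons (8 of 9) reached the minimum in at least 2 arrays. So did markers of amygdala and cortex (7 of 8), striatal neurons (5 of 11) and thalamus and habenula (4 of 10). These counts therefore do not measure how pure the dissected tissue was. A probeset was tested if at least 2 of the 4 arrays reached 100. It was called if limma's moderated test gave a Benjamini-Hochberg adjusted p under 0.05 over all 16938 probesets tested.

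Penk rose in the fluoxetine pools, and it was the only opioid gene that passed the test. Its probeset 1427038_at, the one Penk probeset on the array, had an intensity of 3649 and 3331 in fluoxetine pools 1 and 2, against 263 and 259.9 in control pools 1 and 2. Both fluoxetine pools lay far above both control pools, and the pools of a group were close to each other, with a ratio of 1.10 between the fluoxetine pools and 1.01 between the control pools. The geometric mean intensity was 3486 in fluoxetine pools and 261 in control pools, a 13.3-fold difference. On the log2 scale the change was 3.74 ± 0.08 (SE, n = 2 pools per group, limma adjusted p = 0.00217), with a 95% interval of 3.54 to 3.94. This was the highest log2 fold change of all 16938 probesets tested. With any 1 of the 4 arrays left out the change stayed between 3.67 and 3.80 but no longer passed by limma (adjusted p 0.0667 to 0.0876), and it did not pass either with all 45037 probesets in the test (adjusted p = 0.147).

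Of the 13 member probesets 4 were tested and 1 was called, while 1.72% of all tested probesets were called, 1.03% higher and 0.685% lower. The groups of all 4 tested member probesets did not overlap, 2 of them higher and 2 lower in fluoxetine pools. Over all tested probesets this was so for 56%, with 21.9% higher and 34.2% lower, so groups that do not overlap say little about the members.

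**Figure D1:**
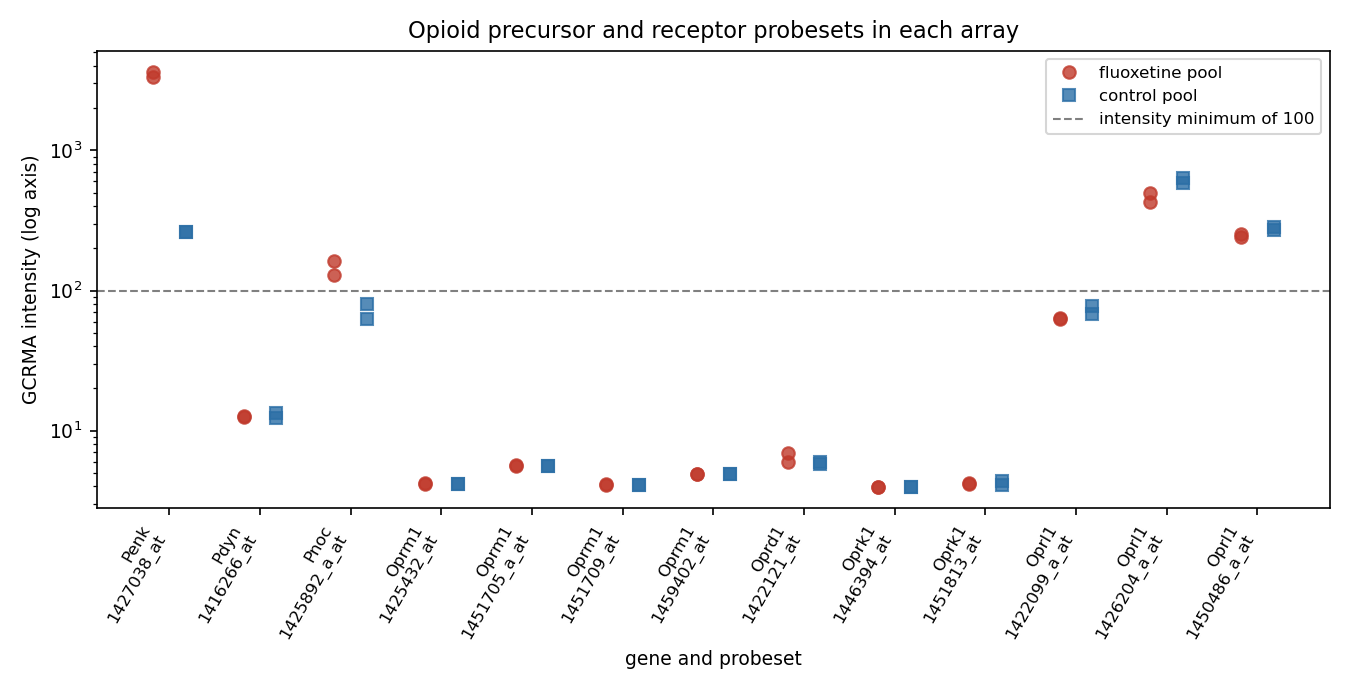
GCRMA intensity (log axis) of the 13 opioid probesets, with circles for the 2 fluoxetine pools left of squares for the 2 control pools. Penk stands at 3331 and 3649 in fluoxetine pools, against 259.9 and 263 in control pools, and 9 probesets lie under the dashed minimum of 100 in all 4 arrays.

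Pnoc, the precursor of nociceptin, was higher in both fluoxetine pools but did not pass the test. Its probeset 1425892_a_at read 129 and 162 in fluoxetine pools 1 and 2, against 63.1 and 80.2 in control pools 1 and 2. The groups did not overlap, and pool 2 was the higher one within each group. Both control pools were under 100, so the fold is given against 100, at least 1.45-fold. The measured geometric means were 145 in fluoxetine and 71.1 in control pools, a log2 difference of 1.03 ± 0.17 (SE, n = 2 pools per group, limma adjusted p = 0.0682) with a 95% interval of 0.59 to 1.46. With values floored at 100 this difference shrank to 0.53 (limma adjusted p = 0.108). Pnoc entered the test through its fluoxetine pools alone, since a probeset dim in both groups was not tested.

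Pdyn, the dynorphin precursor, was not well above background. Probeset 1416266_at read 12.7 and 12.5 in fluoxetine pools 1 and 2, against 12.4 and 13.4 in control pools 1 and 2. The groups overlapped, and no array came near 100. Dynorphin is a classical peptide of the granule cell mossy fibres, so a signal this low on all 4 arrays describes this 1 probeset and does not show that the transcript was missing. GCRMA pulls dim probesets towards a common floor, where a change would be hard to see.

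**Figure D2:**
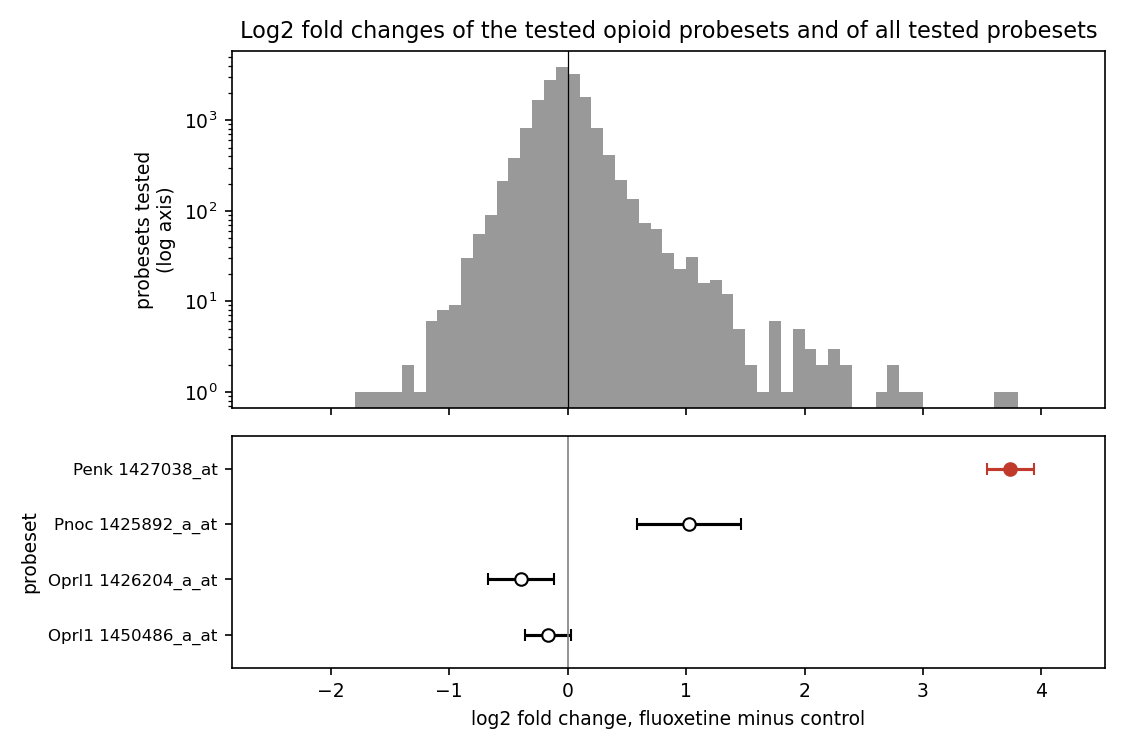
The upper panel counts all 16938 tested probesets (log axis) by log2 fold change, fluoxetine minus control, and the lower panel gives the 4 tested opioid probesets with their 95% intervals. Penk (filled) lies at 3.74, the far end of the distribution, Pnoc at 1.03, and the Oprl1 probesets at -0.39 and -0.17.

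Among the receptors, Oprl1, which binds nociceptin and not the classical opioid peptides, was the only one above the minimum. Probeset 1426204_a_at read 499 and 425 in fluoxetine pools 1 and 2, against 580.2 and 630.0 in control pools 1 and 2. Both fluoxetine pools were lower than both control pools. The log2 difference of -0.39 ± 0.11 (SE, n = 2 pools per group) did not pass (limma adjusted p = 0.135), and its 95% interval of -0.67 to -0.12 was not adjusted for the number of probesets.

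The second Oprl1 probeset, 1450486_a_at, read 253 and 239 in fluoxetine pools, against 269 and 284 in control pools. Its groups did not overlap either, and the difference was smaller, -0.17 ± 0.07 (log2, SE, n = 2 pools per group, limma adjusted p = 0.266, 95% interval -0.36 to 0.02). The third, 1422099_a_at, stayed under 100 and was not tested, with 63.6 and 62.5 in fluoxetine pools, against 67.5 and 77.7 in control pools. All 3 Oprl1 probesets were lower in fluoxetine pools, and the difference in size between them was not tested. They are not independent readings, since they share the RNA of the same pools, and 1450486_a_at and 1422099_a_at are annotated to the same sequence record. The suffix _a_at marks probesets whose probes match several transcripts of 1 gene, so these values do not separate Oprl1 transcripts.

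The mu, delta and kappa receptors were not measurable on these arrays. Their 7 probesets, 4 for Oprm1, 1 for Oprd1 and 2 for Oprk1, had intensities between 3.94 and 6.89 in all 4 arrays. For scale, the 25th percentile of intensity over all probesets lay between 5.68 and 5.84 per array. Oprd1, the delta receptor, read 5.97 and 6.89 in fluoxetine pools, against 5.80 and 5.97 in control pools. Oprm1, the mu receptor and main target of morphine, ranged between 4.09 and 5.72 over its probesets and arrays. Oprk1, the kappa receptor that dynorphins prefer, ranged between 3.94 and 4.36. Log2 differences of these 7 probesets lay between -0.01 and 0.12. No difference was detectable at this signal, which does not show that receptor transcripts were equal in the groups.

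In bulk tissue, a change in the number of cells that make a transcript and a change in its amount per cell cannot be told apart. Penk is also a marker of striatal projection neurons, so markers of that neighbouring tissue were read in the same arrays. At the brightest probeset, 1.31% of all 9030 genes tested were called higher and 0.554% lower. Of 11 annotated striatal genes other than the opioid precursors, 5 were tested and 1 was called. This was Drd1, the D1 dopamine receptor, with 484 and 458 in fluoxetine pools, against 126 and 159.5 in control pools. Only this probeset was called of the 2 tested for Drd1. Drd2, the D2 dopamine receptor that marks the Penk-expressing striatal neurons, was at 4.80 and 4.81 in fluoxetine pools, against 4.80 and 4.79 in control pools. Gpr6, Ido1, Rarb, Rasd2 and Rgs9 of the same list were not tested either. Ppp1r1b, the phosphoprotein DARPP-32, read 187 and 217 in fluoxetine pools, against 129.5 and 126 in control pools, and did not pass (0.66 ± 0.10, log2, SE, n = 2 pools per group, limma adjusted p = 0.0590). Tac1, the substance P precursor, was at 0.36 ± 0.14 (adjusted p = 0.223), which is also the median of the 5 tested genes, 3 of them above 0. The summed intensity of the list was 4610 and 5410 in fluoxetine pools, against 4436 and 4651 in control pools, with Pde10a, at 1632 and 2327 in fluoxetine pools, against 1880 and 2026 in control pools, the brightest of the 5.

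Interneuron markers gave 1 call among 13 tested genes, Npy, and their median log2 fold change was 0.0024. The summed list was 42966 and 44052 in fluoxetine pools, against 39158 and 40474 in control pools. Npy is counted in it, at 5944 and 6508 in fluoxetine pools, against 1236 and 1436 in control pools. Its rise was larger than that of the sum, so the sum does not show a rise of the other markers. Of the 13 genes 6 were higher and 5 lower in both fluoxetine pools than in both control pools. Over all tested probesets these shares were 21.9% and 34.2%. The GABA-synthesising enzyme genes lay on either side, Gad1 at -0.08 ± 0.07 (log2, SE, n = 2 pools per group, limma adjusted p = 0.541) and Gad2 at 0.26 ± 0.11 (adjusted p = 0.248).

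Of 11 tested granule cell markers, Rasl10a rose, Dsp fell and 9 were not called, and the list median was -0.0038 on the log2 scale. Calb1, not called at its brightest probeset (-0.45 ± 0.08, limma adjusted p = 0.0771), was called at 1 of its 3 tested probesets. Of 7 tested immature granule cell genes Sox11 rose, and the summed list stood at 14150 and 14203 in fluoxetine pools, against 11589 and 12139 in control pools. Most of that sum was Tubb2b, at 8942 and 9180 in fluoxetine pools, against 6577 and 6848 in control pools, which was not called. The list was mixed, with 4 genes higher and 3 lower in both fluoxetine pools than in both control pools. Markers of amygdala and cortex, thalamus and habenula, CA pyramidal neurons and hilar mossy cells gave 0 calls by limma. They had 7, 4, 8 and 3 tested genes and median log2 fold changes of -0.26, 0.17, -0.19 and 0.14, in that order.

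The summed astrocyte, microglia and vascular lists were higher in the fluoxetine pools. For comparison, 1.31% of all 9030 genes tested were called higher and 0.554% lower. Of 12 tested astrocyte genes 3 rose, and the summed list stood at 91297 and 93169 in fluoxetine pools, against 78504 and 80193 in control pools. The astrocyte genes were mixed, 6 higher and 3 lower in both fluoxetine pools than in both control pools. Their median log2 fold change was 0.16. Slc1a2, not called at its brightest probeset, was called at 1 of its 3 tested probesets. Of 9 tested microglia genes 5 rose, with sums of 11813 and 11392 in fluoxetine pools, against 7369 and 7132 in control pools. Of 9 tested endothelial and mural genes 2 rose, with sums of 5961 and 5845 in fluoxetine pools, against 4549 and 4629 in control pools. Rgs5, which rose at its brightest probeset, was called at 1 of its 4 tested probesets. Of 5 tested meningeal and fibroblast genes 1 rose, Col3a1, with sums of 3397 and 3423 in fluoxetine pools, against 2487 and 3368 in control pools. The 9 tested oligodendrocyte genes gave 0 calls by limma, with sums of 58717 and 58241 in fluoxetine pools, against 61617 and 61003 in control pools.

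All 18 hybridisation spike-in probesets were also higher in both fluoxetine arrays, by a median log2 difference of 0.36 (0.17 to 0.55). Over all tested probesets the median was -0.04. The part of these cell type markers and of the spike-in difference in the Penk result was not tested. With every array centred on its spike-ins, the Penk difference was 3.37.

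The genes most like Penk across the 4 arrays were found by distance, among 9027 genes at their brightest tested probeset. The measure was the Euclidean distance between log2 values centred on the mean of the 4 arrays, and it follows mainly the size of the group difference. The order rests in part on control values of Gal, Inhba and Nptx2 under the minimum of 100. Galanin (Gal), a neuropeptide, was the nearest at a distance of 0.50. Next came Inhba (0.86), the activin beta A subunit, Gfap (0.98), the astrocyte filament, and Nptx2 (1.03), a secreted pentraxin of excitatory synapses. The calcium-binding protein gene S100a6 (1.50) and neuropeptide Y, Npy (1.53), completed the 6 nearest genes. With values floored at 100, an alternative chosen after seeing the data, Gfap (0.98), S100a6 (1.50) and Npy (1.53) became the nearest, followed by Bdnf (1.59), the brain-derived neurotrophic factor, Nptx2 (1.85) and the sphingosine 1-phosphate receptor gene S1pr3, while Inhba came 11th and Gal 16th. These genes were picked by this likeness, so their group difference is a description.

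**Figure D3:**
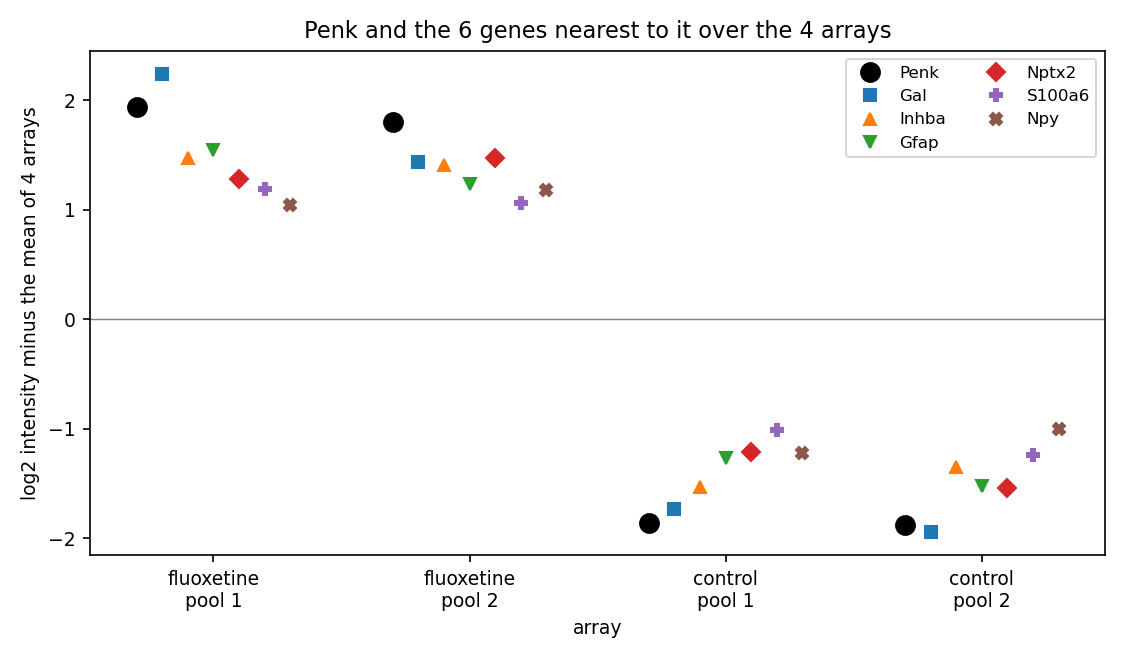
Log2 intensity minus the mean of the 4 arrays for Penk and the 6 nearest genes, by array, with the fluoxetine pools left of the control pools. Every gene shown is above 0 in both fluoxetine pools and below 0 in both control pools. The control values of Gal, Inhba and Nptx2 were under 100.

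Gal differed from Penk in how far its fluoxetine pools lay apart. It read 353 and 201 in fluoxetine pools 1 and 2, against 22.5 and 19.4 in control pools, at least 2.67-fold when set against 100. Npy read 5944 and 6508 in fluoxetine pools, against 1236 and 1436 in control pools. No other member of the opioid family passed the test, so no further likeness was computed.

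The rest of the pathway was described with 8 lists, outside the 7 opioid genes, of 133 genes, of which 125 were annotated and 96 were tested. Of these 9 rose and 0 fell by limma, that is 9.38% called higher, while 1.31% of all 9030 genes tested were called higher and 0.554% lower at their brightest probeset. The lists were drawn up when several of these rises were already known, so this share is not independent evidence of a direction. With any array left out, limma called 0 of these genes and 0 probesets on the whole array, with 2657 to 3515 probesets at an unadjusted p under 0.05.

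Other neuropeptide precursors gave 2 rises among 9 tested genes, Npy and Gal, and their median log2 fold change was 0.36, against -0.03 over all genes tested. That median was 0.17 without control pool 1, 0.56 without control pool 2, 0.07 with no intensity filter, and 0.0024 over the 7 genes that reached 100 in all 4 arrays, Gal not among them. Grp, the gastrin-releasing peptide precursor, was at 0.90 ± 0.13 (log2, SE, n = 2 pools per group) and did not pass by limma (adjusted p = 0.0535). Crh, the corticotropin-releasing hormone precursor, was at 0.59 ± 0.24 (limma adjusted p = 0.235). Pomc, which encodes the beta-endorphin precursor, was not well above background, with 17.8 and 20.1 in fluoxetine pools, against 15.9 and 10.7 in control pools.

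Genes for processing and storing precursors had 3 rises among 15 tested, all granins or granin-like proteins of the dense-core vesicle and none of them an enzyme. Scg2 rose by 0.98 ± 0.09, Vgf by 0.80 ± 0.08 and Chga by 0.68 ± 0.06 (log2, SE, n = 2 pools per group, limma adjusted p between 0.0350 and 0.0380). Chgb, another granin, was at 0.40 ± 0.07 (adjusted p = 0.0707), and Pcsk1n, an inhibitor of prohormone convertase 1, at -0.28 ± 0.09 (adjusted p = 0.185). Cpe, the carboxypeptidase that trims the cut peptides, read 40586 and 41575 in fluoxetine pools, against 37754 and 39899 in control pools, and was not called. Pcsk1, a convertase that cuts opioid precursors, was at the floor in all 4 arrays.

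Peptidases that degrade opioid peptides gave 0 calls among 8 tested genes by limma. Ece1, endothelin-converting enzyme, was at 0.37 ± 0.07 (log2, SE, n = 2 pools per group, adjusted p = 0.0823), and the aminopeptidase gene Rnpep at -0.27 ± 0.12 (adjusted p = 0.264). Mme, neprilysin, which cleaves enkephalins, read 77.9 and 59.3 in fluoxetine pools, against 105 and 94.1 in control pools. Only 1 of its arrays reached 100, so it was not tested.

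**Figure D4:**
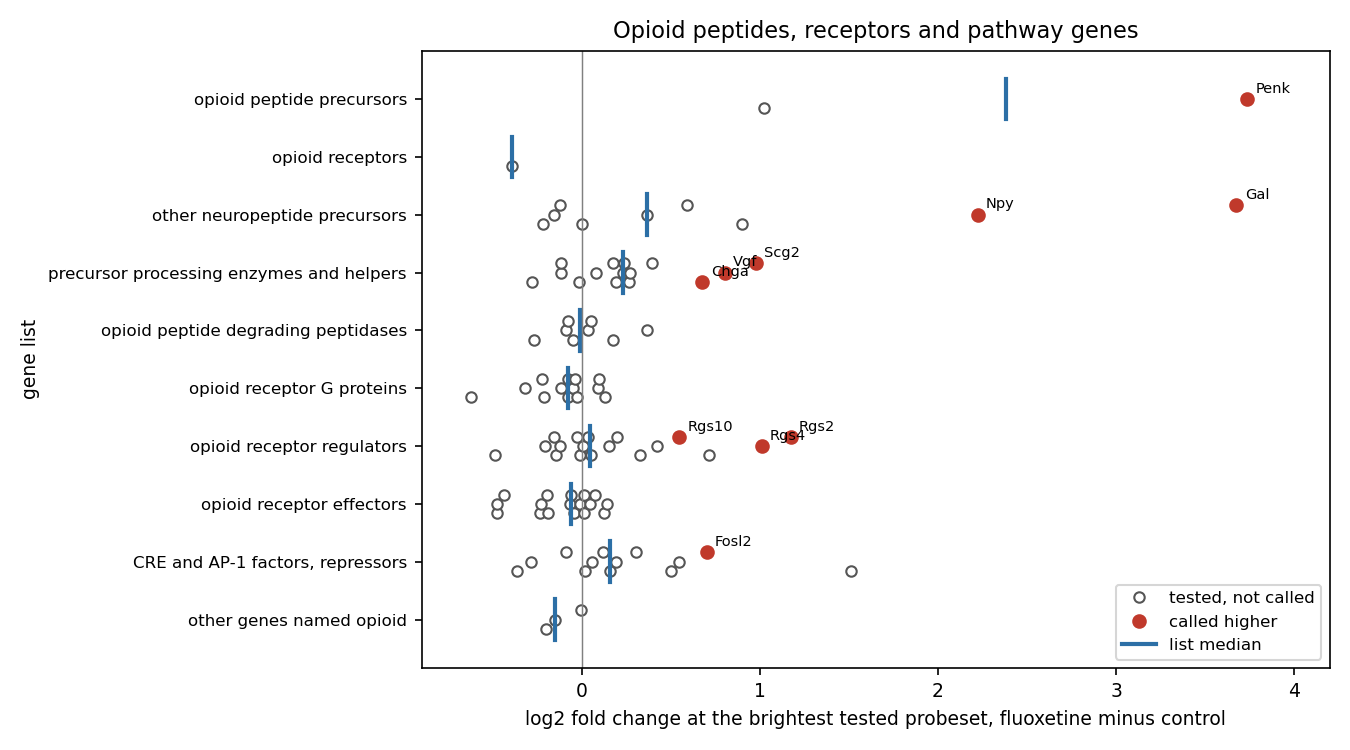
Log2 fold change, fluoxetine minus control, of each tested gene in the opioid precursor, receptor and pathway lists, with filled points for called genes and bars for list medians. All 10 called genes lie above 0, at 0.55 or more, and the 13 G protein and 17 effector genes have no filled point.

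Downstream of the receptors, the 13 G protein subunit genes and the 17 effector genes gave 0 calls by limma. Their median log2 fold changes were -0.08 and -0.06, and the effector median was 0.0092 without fluoxetine pool 1 and -0.13 without fluoxetine pool 2, so it has no settled sign. The largest differences were those of the G protein gamma subunit genes Gng4 (-0.62 ± 0.15, adjusted p = 0.116) and Gng7 (-0.32 ± 0.11, adjusted p = 0.192). Among effectors they were Kcnj9, a subunit of the G protein-gated potassium channel (-0.48 ± 0.13, adjusted p = 0.139), and the adenylyl cyclase gene Adcy8 (-0.47 ± 0.16, adjusted p = 0.181). These values are limma log2 fold changes ± SE from n = 2 pools per group.

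Regulators of receptor signalling had 3 rises among 18 tested genes, all of the RGS family, which shortens G protein signalling. Rgs2 rose by 1.17 ± 0.13 and Rgs4 by 1.01 ± 0.07, each at all 3 of its tested probesets, and Rgs10 by 0.55 ± 0.07 (log2, SE, n = 2 pools per group, limma adjusted p between 0.0252 and 0.0448). Rgs20 was at 0.72 ± 0.15 (adjusted p = 0.0952), and Grk3, a receptor kinase, at -0.49 ± 0.08 (adjusted p = 0.0639). The arrestin genes Arrb1 and Arrb2 were not called. The list median was 0.04, and 0.03 to 0.07 with each array left out in turn.

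Transcription factors that act on opioid peptide genes through CRE and AP-1 sites, with repressors of those genes, gave 1 rise among 13 tested. Fosl2, an AP-1 subunit, rose by 0.70 ± 0.07 (log2, SE, n = 2 pools per group, limma adjusted p = 0.0380). Fos read 483 and 1039 in fluoxetine pools, against 268 and 229.8 in control pools, and did not pass (adjusted p = 0.117). Crem, a CRE-binding factor, was at 0.55 ± 0.15 (adjusted p = 0.145). Creb1 read 903 and 919 in fluoxetine pools, against 891 and 911 in control pools.

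The 3 tested genes that carry opioid in their names without belonging to the classical family gave 0 calls by limma. Ogfrl1 was at -0.20 ± 0.10 (log2, SE, n = 2 pools per group, adjusted p = 0.323) and Opcml, a cell adhesion molecule, at -0.15 ± 0.07 (adjusted p = 0.300).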

How the data were processed

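The authors deposited 1 intensity per probeset and array. Per the labels' design text these are GCRMA values made in ArrayAssist, and no source used here gives software versions. GCRMA models background from the probe sequences, scales the arrays to each other and condenses the probes of a probeset to 1 value. Log2 was taken with no pseudocount. The 64 control probesets were set aside, and testing needed 100 in at least 2 of 4 arrays. Of 45101 probesets, 34958 had 1 symbol in the platform annotation, 932 several and 9211 none.

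Sample titles gave the groups. The comparison used limma 3.58.1 under R 4.3.3 (lmFit and eBayes, two-sided, without covariates). With 2 arrays a group, an exact permutation test reaches 0.333 at best. Group means are geometric. In the lists, a gene was read at its brightest tested probeset. Named pathway genes were every called member of a list and up to 2 others with the largest absolute change. Genes named outside this rule (Cpe, Pcsk1, Mme, Pomc, Creb1, Arrb1, Arrb2 and the cell type markers) were chosen for their role, after their values were seen. The members and lists were chosen with earlier results of these data known. The procedure was tested on simulated data. Alternatives were other filters, scalings, a floor, a pseudocount, variance settings, the pool number as a block, and leaving out each array.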

Additional observations from a re-analysis of the deposited data

Results flagged for a closer look

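The hybridisation spike-in probesets were not among the tested probesets and still differed between the groups. In all 18, both fluoxetine arrays exceeded both control arrays, by a median of 0.361 on the log2 scale (0.17 to 0.55). The median log2 spike-in intensity was 10.6 and 10.8 in fluoxetine arrays 1 and 2, against 10.4 and 10.3 in control arrays 1 and 2. Penk differed by 3.74 on the same scale, Pnoc by 1.03, and the tested Oprl1 probesets by -0.39 and -0.17.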

How the results depend on the processing

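The direction of all 4 tested opioid probesets held under every alternative run, 13 each for Penk and the Oprl1 probesets and 12 for Pnoc, which was not tested with 100 required in all 4 arrays. Most of these alternatives could not have reversed it. Filters, variance settings and the block leave the log2 difference unchanged, and a floor or pseudocount keeps the order of values. Groups that do not overlap also keep their direction with any array left out. Only the other scalings could have reversed a direction. Penk lay between 3.37 and 3.80 and stayed called in 8 of 13 alternatives. It was lost with no intensity filter (3.74, limma adjusted p = 0.147), where 45037 probesets were tested and 0 were called (5396 at an unadjusted p under 0.05), so the count of opioid probesets and of pathway genes called was 0 as well. It was also lost with any array left out, at 3.67 to 3.80 and adjusted p between 0.0667 and 0.0876. Each of those limma fits has 1 residual degree of freedom and called 0 probesets, so 0 opioid probesets and 0 pathway genes (2657 to 3515 probesets at an unadjusted p under 0.05). With the pool number as a replicate block, Penk stayed called (limma adjusted p = 0.0464) and 9 probesets and 2 pathway genes (Penk counted among them) were called, against 291 and 10 without it. The block fit also has only 1 residual degree of freedom, against 2 in the main fit. The labels do not say that a number links pools, and deviations of same-numbered pools correlated at 0.14 over tested probesets. eBayes with trend and robust settings called 532 probesets, and the submitters' 2-fold rule took 134. Centring on spike-ins moved the median of all tested probesets to -0.41 and gave every probeset the same SE of 0.17, so its counts (10397 probesets, 4 opioid probesets, 57 pathway genes) reflect that shift. Under it the medians of the neuropeptide (-0.01), processing (-0.14), regulator (-0.33) and CRE and AP-1 (-0.21) lists turned negative. Without fluoxetine pool 2 the Oprl1 difference at 1426204_a_at was -0.28, and without fluoxetine pool 1 it was -0.51. Signal over background limits Pdyn, Oprm1, Oprd1 and Oprk1.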

Other observations

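The transthyretin gene Ttr, an abundant product of the choroid plexus, differed more between pool numbers than between groups. It read 51101 and 4429 in fluoxetine pools 1 and 2, against 37856 and 2002 in control pools 1 and 2. At each number the fluoxetine pool was the higher one. The group difference of 0.79 ± 1.79 (log2, SE, n = 2 pools per group) was not called and is not resolved by these arrays. The other tested choroid plexus marker, Kl, was lower in the fluoxetine pool at each number. It read 119.8 and 31.7 in fluoxetine pools 1 and 2, against 120.2 and 48.95 in control pools 1 and 2. Penk differed by a ratio of 1.10 between the fluoxetine pools and 1.01 between the control pools, and Pnoc by 1.26 and 1.27, with pool 2 the higher in each group.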
